A study of Mus musculus with 6 samples.

Results

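The genes described here are 10 markers of macrophages: Adgre1, Cd68, Csf1r and Lyz2, found in most macrophages, Cd163 and Mrc1, scavenger receptors of resident macrophages, Cd14, a receptor used to mark inflammatory monocytes and macrophages, and Trem2, Ms4a7 and Cx3cr1, which mark particular states or origins. They were taken as every non-control probe whose RefSeq transcript accession maps to one of these symbols, which gave 15 probes for 10 of the 36710 genes on the array. Probes without a mapped symbol were counted as genes under their identifier on the array. Gene expression had been measured in the gastrocnemius, a calf muscle, of 3 young mice aged 13 weeks and 3 aged mice aged 26 months, all male C57BL/6J mice without any treatment named in the labels, with 1 single-colour Agilent array per mouse. A level is given as log2 of the processed signal over the 75th percentile of the same array, so that a value of 0 is the brightness of that percentile. Levels of different probes are not compared, because each probe has its own brightness.

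Macrophages are phagocytes of the innate immune system. In resting muscle they lie between the fibres and in the connective tissue and take up debris and dead cells. After damage, monocytes leave the blood, enter the muscle and become inflammatory macrophages, and later macrophages of a repair type take their place. Survival of the lineage depends on signalling through Csf1r, and its identity on the transcription factor PU.1, the product of Spi1. RNA of whole muscle comes mostly from fibres, so in these arrays a larger number of macrophages and more RNA per macrophage cannot be told apart.

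In aged mice the levels of 8 of the 9 markers that could be tested were higher than in young mice, by 1.28-fold for Cd14 to 2.53-fold for Lyz2, and that of Csf1r was 0.952-fold. Of all 20900 genes tested 8622 were higher in aged mice, and the counts of higher genes in the lists below stand beside that share. None of the 9 passed the threshold, an adjusted p under 0.05 in limma over 20900 genes tested, which 0.191% of all genes passed as higher in aged mice and 0.249% in either direction. Without adjustment 4 of the 9 (Adgre1, Cd68, Trem2 and Ms4a7) had a p under 0.05 and were higher in aged mice, compared with 5.72% of all genes. In 5 of the 9 (those 4 and Mrc1) all 3 aged arrays lay above all 3 young arrays, which held for 7.38% of all genes. This count of 5 depended on the scaling and background. It was 3 with normexp background correction, where the share of all genes was 6.93%, and 2 after scaling to the array median, where it was 3.33%. The median difference of the 9 markers was 0.62 on the log2 scale, and that of all genes tested was -0.08. All 9 were well above background on all 6 arrays, so none entered the test through the aged group alone. The remaining marker, Cd163, was not well above background on any array.

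**Figure D1:**
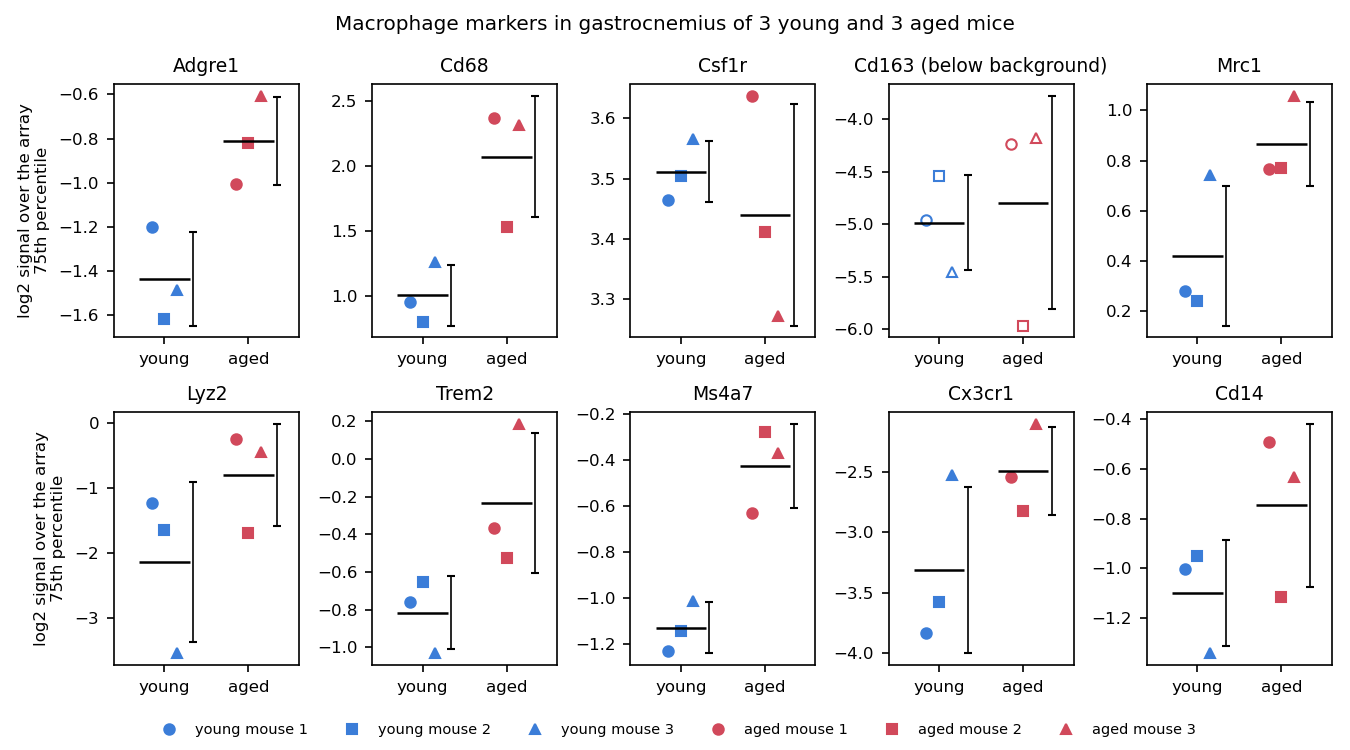
Levels of the 10 macrophage markers in each mouse (y axis, log2 signal over the array's 75th percentile, each panel on its own scale); points are mice, long bars group means, error bars 1 SD (n = 3) and open points signals not well above background. The aged points lie above all young points in the panels of Adgre1, Cd68, Mrc1, Trem2 and Ms4a7, and the groups overlap in the other panels.

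Among the markers of most macrophages, Cd68 encodes a glycoprotein of the lysosome that is abundant in phagocytes. In the young mice, taken in the order 1, 2, 3, its level was 0.95, 0.80 and 1.26, and in the aged mice 2.36, 1.53 and 2.31. The groups did not overlap, and aged mouse 2 lay closest to the young mice. The means were 1.0 ± 0.23 (SD, n = 3) and 2.07 ± 0.47 (SD, n = 3), a difference of 1.07 (SE 0.27, 95% interval 0.43 to 1.71) or 2.09-fold, with a limma adjusted p of 0.180.

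Adgre1 encodes a surface receptor of the adhesion class by which mouse macrophages are usually identified. It was at -1.20, -1.62 and -1.48 in young mice and at -1.01, -0.82 and -0.61 in aged mice. All aged values lay above all young values, although young mouse 1 and aged mouse 1 were close. The difference was 0.62 (SE 0.19, 95% interval 0.17 to 1.08), or 1.54-fold, with a limma adjusted p of 0.235. The other Adgre1 probe gave a difference of 0.52, also with all aged arrays above all young ones.

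Csf1r, the receptor for the growth factors Csf1 and Il34, was the only one of the 9 whose mean was lower in aged mice. Its level was 3.46, 3.51 and 3.57 in young mice and 3.64, 3.41 and 3.27 in aged mice. The aged values lay on both sides of the young ones, and the highest and the lowest of the 6 arrays were both aged. The difference was -0.07 (SE 0.16, 95% interval -0.46 to 0.32, limma adjusted p = 0.857), an interval that does not reach a change as large as that estimated for Cd68 in either direction. Its direction was not settled, since it was 0.01 without aged mouse 3 and 0.13 with the row of the slide as a block. The other Csf1r probes gave -0.19 and -0.13, with overlap in both.

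Lyz2 encodes lysozyme, an enzyme that breaks bacterial cell walls and is made by macrophages, monocytes and neutrophils. It was at -1.23, -1.64 and -3.55 in young mice and at -0.25, -1.70 and -0.45 in aged mice. Young mouse 3 stood far below the other arrays, and aged mouse 2 lay slightly below young mouse 2. The difference of 1.34 was the largest among the 9 markers and also the least precise (SE 0.66, 95% interval -0.23 to 2.91, limma adjusted p = 0.399). Without young mouse 3 it was 0.64. Lyz2 has a near-identical neighbour, Lyz1, whose own probe differed by 0.04, and whether the Lyz2 probe also reads Lyz1 was not tested.

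Of the resident markers, Mrc1 encodes the mannose receptor CD206, which takes up glycoproteins. Its level was 0.28, 0.24 and 0.74 in young mice and 0.77, 0.77 and 1.06 in aged mice. The groups did not overlap, but the gap between young mouse 3 and the lowest aged mouse was small compared with the spread within groups. The difference was 0.44 (SE 0.20, 95% interval -0.03 to 0.92), or 1.36-fold, with a limma adjusted p of 0.366. Cd163, the receptor for complexes of haemoglobin and haptoglobin, was at -4.96, -4.54 and -5.45 in young mice and at -4.24, -5.97 and -4.18 in aged mice. As no array was well above background for Cd163, these signals carry no fold and no test.

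Cd14, the co-receptor that hands bacterial lipopolysaccharide to Tlr4, was at -1.0, -0.95 and -1.34 in young mice and at -0.49, -1.12 and -0.63 in aged mice. Aged mouse 2 fell within the young range. The difference was 0.35 (SE 0.22, 95% interval -0.18 to 0.88, limma adjusted p = 0.494).

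The remaining markers describe states or origins of macrophages. Ms4a7, a membrane protein of the family that includes CD20, is expressed by tissue macrophages outside the brain parenchyma. It was at -1.23, -1.14 and -1.01 in young mice and at -0.63, -0.28 and -0.37 in aged mice. The groups were apart and tight. Their difference of 0.70 (SE 0.17, 95% interval 0.30 to 1.1), or 1.63-fold, had the lowest adjusted p among the 9, 0.168 in limma.

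Trem2 encodes a lipid-sensing receptor that signals through the adaptor Tyrobp. Its level was -0.76, -0.66 and -1.03 in young mice and -0.37, -0.52 and 0.19 in aged mice. All aged values were above the young values, with aged mouse 3 the highest. The difference was 0.58 (SE 0.23, 95% interval 0.03 to 1.13), or 1.5-fold, with a limma adjusted p of 0.323.

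Cx3cr1, the receptor for the chemokine Cx3cl1, marks patrolling monocytes and part of the resident macrophages. It was at -3.83, -3.57 and -2.53 in young mice and at -2.54, -2.82 and -2.10 in aged mice. Young mouse 3 lay above aged mice 1 and 2. The difference was 0.82 (SE 0.37, 95% interval -0.06 to 1.71, limma adjusted p = 0.365), and it was 0.09 with normexp background correction. This probe was dim, a further probe gave 0.99 and was well above background on 1 young and 3 aged arrays, and the last Cx3cr1 probe was not well above background on any array.

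**Figure D2:**
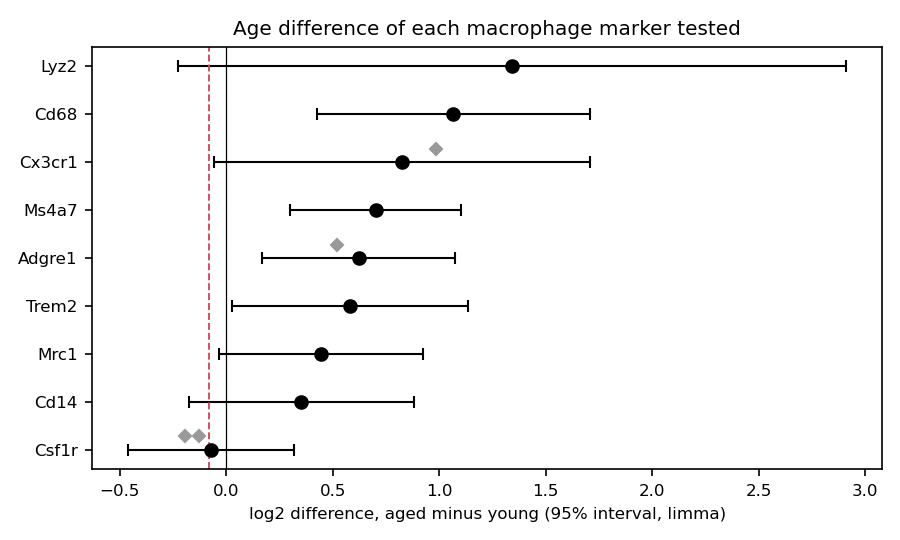
Difference in level of each marker tested (x axis, log2, aged minus young; black points with 95% intervals from limma, n = 3 per group); grey diamonds are further probes of the same gene well above background on at least 3 arrays and the dashed line is the median of all genes tested, -0.08. The intervals of Cd68, Ms4a7, Adgre1 and Trem2 lie above 0, and those of the other 5 include it.

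The promoters of 7 of the markers were read from RefSeq (GRCm38.p6), as the 250 bases before each annotated start on the strand of the gene, to show what the DNA next to these genes holds. They were searched on both strands for GAGGAA, the core of PU.1 sites, TTGCNNAA, the core of C/EBP sites, and TATAAA, the TATA box, none of which overlap each other in these windows. Among 32851 promoter windows of the same length 23.3% held GAGGAA, 9.56% held TTGCNNAA and 12.4% held TATAAA. Of the 7 markers 3 (Cd68, Mrc1 and Trem2) held GAGGAA, 1 (Cd68) held TTGCNNAA and none held TATAAA. The 3 windows with GAGGAA are printed 5′ to 3′ with the matches in capitals, where TTCCTC is GAGGAA read on the other strand.
Cd68: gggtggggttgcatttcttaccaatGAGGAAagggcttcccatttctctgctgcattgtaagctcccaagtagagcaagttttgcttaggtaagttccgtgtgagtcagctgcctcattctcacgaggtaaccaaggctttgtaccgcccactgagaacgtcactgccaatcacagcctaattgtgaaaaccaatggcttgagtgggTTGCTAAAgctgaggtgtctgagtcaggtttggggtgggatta
Mrc1: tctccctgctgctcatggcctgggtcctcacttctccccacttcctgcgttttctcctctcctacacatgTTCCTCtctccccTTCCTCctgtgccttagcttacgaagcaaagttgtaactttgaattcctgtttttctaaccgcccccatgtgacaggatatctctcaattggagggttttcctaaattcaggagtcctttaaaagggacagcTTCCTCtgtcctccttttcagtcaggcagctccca
Trem2: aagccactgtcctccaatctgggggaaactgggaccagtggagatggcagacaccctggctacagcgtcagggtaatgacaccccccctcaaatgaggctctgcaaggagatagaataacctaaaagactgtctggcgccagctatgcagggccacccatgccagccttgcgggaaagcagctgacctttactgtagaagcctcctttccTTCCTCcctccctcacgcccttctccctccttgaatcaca
The Cd68 window (chr11:69666171-69666420, minus strand) held GAGGAA from base -225, counted back from the start, and TTGCTAAA, a form of the C/EBP core, from base -43. The Mrc1 window (chr2:14229164-14229413, plus strand) held 3 matches on the other strand, from bases -180, -167 and -35. In the Trem2 window (chr17:48346151-48346400, plus strand) the single match lay on the other strand from base -40. These matches describe letters in the reference sequence, and binding of a factor was not measured. Spi1 itself was not well above background on any array.

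The 3 aged mice did not contribute equally to the differences. When each marker was centred on its young mean, the median of the 9 deviations was -0.05, -0.02 and 0.05 in the young animals, in the order 1, 2, 3, and 0.50, 0.44 and 0.83 in the aged animals. Thus each aged mouse lay above each young mouse by this measure, and aged mouse 3 was the highest. The aged medians had to be above 0, because 5 of the 9 markers did not overlap between the groups. Above the young mean were 9, 7 and 8 of the 9 markers in the aged animals, compared with 4, 3 and 5 in the young animals. Of all 20900 genes tested, 8834, 9721 and 8834 lay above their young mean in the aged animals. In the young animals 8317, 9701 and 13063 did.

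All 6 arrays were on 1 slide, with the young mice and aged mouse 1 in row 1 and aged mice 2 and 3 in row 2. Within row 1, aged mouse 1 differed from the young mean by 1.36 for Cd68, 0.43 for Adgre1, 0.50 for Ms4a7, 0.45 for Trem2 and 0.35 for Mrc1. The corresponding differences of the aged mice in row 2 from the young mice were 0.92, 0.72, 0.80, 0.65 and 0.49. These 5 were the markers without overlap between the groups, so their aged values had to exceed the young mean in either row. Of the other markers tested, Lyz2, Cx3cr1 and Cd14 differed by 1.89, 0.77 and 0.61 in row 1. For the aged mice in row 2 they differed from the young mice by 1.07, 0.85 and 0.225. Csf1r differed by 0.13 in row 1 and by -0.17 in row 2. The comparison within a row rests on a single aged mouse. The 5 markers without overlap, and Lyz2, Cx3cr1 and Cd14, kept their direction under all 17 other settings tried. The adjusted p stayed above 0.05 in each. The series matrix, the mean-variance trend and the replicate block could not change a difference. Both changes of the filter left those of the markers as they were. For the 5 markers without overlap, neither leaving out a mouse nor a block for the slide row could reverse the direction.

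**Figure D3:**
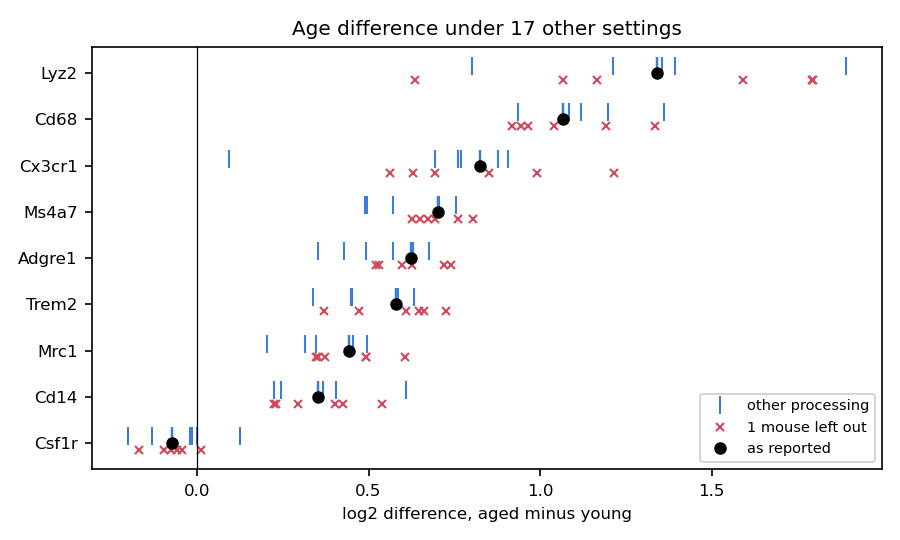
Difference in level of each of the 9 markers (x axis, log2, aged minus young) as reported (black points), under 11 other ways of processing (blue bars) and with each of the 6 mice left out (red crosses). For 8 markers all values lie above 0, and for Csf1r they lie on both sides, from -0.20 to 0.13.

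Other genes of macrophages and of the myeloid lineage in general were described with a list of 22 genes, of which 20 were tested. Of these 17 were higher in aged mice and 3 lower, and none passed the threshold. An unadjusted p under 0.05 with a higher level was found for 12, compared with 5.72% of all genes. In 12 (60%) the aged arrays lay above all young arrays, compared with 7.38% of all genes. Both counts of 12 include Fcgr1, which passed the filter through the aged arrays alone. The median difference of the list was 0.59. The complement component C1qb was 0.87 higher (limma adjusted p = 0.128), and the adaptor Tyrobp was 0.86 higher (limma adjusted p = 0.137). The pore-forming protein Mpeg1 (1.28, limma adjusted p = 0.158) and Aif1, which encodes the actin-binding protein Iba1 (1.13, limma adjusted p = 0.359), were among the genes with the largest differences measured on all arrays. The groups did not overlap for Mpeg1 and overlapped for Aif1. Fcgr1, the high-affinity receptor for IgG, was well above background only on the aged arrays and was at least 2.12-fold higher there (limma adjusted p = 0.0652). A bound of this kind sets the aged mean against the lowest signal of any probe that was well above background on each young array. Where the gene's own signal was higher than that, its own signal was used. The bound is approximate, because a signal above that lowest one can still be too dim for its own probe. Itgam (-0.27) and Mertk (-0.41) had lower means in aged mice, with overlap between the groups in both.

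Resident and inflammatory genes were then set side by side, since muscle macrophages of each kind carry different receptors and products. Of 18 genes of resident macrophages 16 were tested, with 13 higher and 3 lower in aged mice. None passed the threshold. For 1 of the 16 the unadjusted p was under 0.05 with a higher level in aged mice, compared with 5.72% of all genes. Only Mrc1 and F13a1 (2 of 16, 12.5%) had all aged arrays above all young arrays, compared with 7.38% of all genes. The median difference was 0.42. F13a1, which encodes the A subunit of clotting factor XIII, was 1.99, 2.02 and 2.49 in young mice and 2.97, 2.72 and 2.86 in aged mice, a difference of 0.68 (limma adjusted p = 0.215). The 3 with the largest differences were Vsig4, a receptor for complement (1.24, limma adjusted p = 0.351), the lectin Cd209f (0.76, limma adjusted p = 0.407) and Fcna, a ficolin (0.73, limma adjusted p = 0.486). The groups overlapped in each of them, and the young and aged levels of Vsig4 ran from -3.33 to -1.93 and from -2.13 to -0.56. Cd163 and Timd4, a receptor for phosphatidylserine, were not tested because their signals were too dim.

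The list of inflammatory macrophage and monocyte genes had 20 entries, of which 11 were tested, 8 were too dim and 1 (Ly6c2) had no probe matched. Among the dim ones were Tnf, Il1a, Nlrp3, Ptgs2 and Arg1, none of which was well above background on any array. Of the 11 tested 7 were higher and 4 lower, with a median of 0.70. All aged arrays lay above all young arrays in 5 (45.5%), compared with 7.38% of all genes. Il1b is among these 5 and passed the filter through the aged arrays alone. The list held opposite directions, with a range of differences from -1.21 to 4.0, compared with -0.33 to 1.24 in the resident list. Whether the lists differed was not tested.

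With the 75th percentile scaling and the processed signals, Il1b, the cytokine interleukin 1 beta, was the only gene of both lists to pass the threshold, and it rose. Its signal was -6.44, -5.90 and -5.30 in young mice, not well above background on any of them, and -2.81, -2.88 and -2.74 in aged mice. Its p-value therefore uses young signals too dim to measure, and Il1b entered the test through the aged arrays alone. It was at least 2.66-fold higher in aged mice (limma adjusted p = 0.0238). The size depended on the background correction, since with normexp the log2 difference was 0.60, below this bound, compared with 3.07 from the processed signals. The call was held in 8 of the 16 alternative settings in which Il1b was tested (adjusted p from 0.0130 to 0.169), and was lost without young mouse 1 (0.0566), young mouse 2 (0.101), aged mouse 2 (0.0854) or aged mouse 3 (0.113), although the direction was kept in all 16.

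Chil3, a chitinase-like protein secreted by myeloid cells, showed the largest difference of the list, with -3.62, -2.80 and -2.95 in young mice and 1.23, -0.48 and 1.87 in aged mice. The groups were far apart, with a difference of 4.0 (SE 0.59, limma adjusted p = 0.0652). Chil3 passed the threshold after scaling to the array median, with a mean-variance trend and without aged mouse 2. Plac8, a gene of monocytes and granulocytes, differed by 2.08 (limma adjusted p = 0.142), also without overlap. The chemokine Ccl2 differed by 1.65 with overlap (limma adjusted p = 0.450), and most of this came from aged mouse 3, at 2.17, while aged mouse 1 was at -1.86. Nos2, the inducible nitric oxide synthase, went the other way, at -0.37, -0.94 and -0.01 in young mice and -1.54, -1.52 and -1.89 in aged mice, a difference of -1.21 (limma adjusted p = 0.149). The costimulatory ligands Cd80 (-0.44) and Cd86 (-0.42) were lower in aged mice with overlap, and Ccr2, the receptor for Ccl2 (0.82), and Tlr2 (0.70) were higher without overlap.

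**Figure D4:**
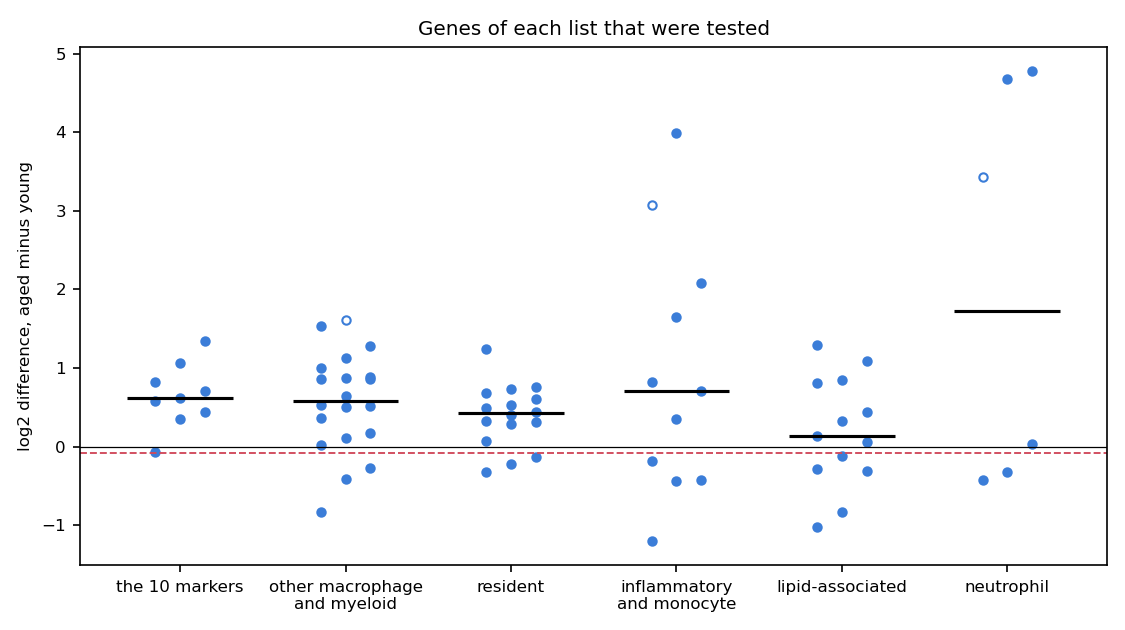
Difference in level (y axis, log2, aged minus young) of each gene tested in the 10 markers and in 5 lists of related genes; short bars are list medians, the dashed line is the median of all genes tested and open points are genes not well above background on any array of one group. The medians are 0.62 for the markers, 0.59 for other macrophage and myeloid genes, 0.42 for resident, 0.70 for inflammatory and monocyte, 0.14 for lipid-associated and 1.73 for neutrophil genes, or 1.53 with Retnlg at its bound.

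Ligands, partners and regulators of the markers were examined as a list of 15 genes, of which 14 were tested and none passed the threshold. Of these 10 were higher and 4 lower in aged mice, with a median of 0.39. The unadjusted p was under 0.05 with a higher level for 3 of the 14, compared with 5.72% of all genes. The ligand of Cx3cr1, Cx3cl1, was -1.08, -0.55 and -0.83 in young mice and -0.03, 0.56 and 0.77 in aged mice, a difference of 1.25 (limma adjusted p = 0.140). The groups did not overlap for Cx3cl1, while they did for its receptor. Of the receptor complex that Cd14 serves, Tlr4 was -1.78, -0.80 and -1.19 in young mice and 0.18, -0.29 and 0.58 in aged mice, a difference of 1.41 without overlap (limma adjusted p = 0.152). Its accessory protein Ly96 differed by 0.44, also without overlap, and Lbp, which carries lipopolysaccharide to Cd14, by -0.19 with overlap. The 2 ligands of Csf1r had opposite signs, 0.28 for Csf1 and -0.42 for Il34, with overlap in both.

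For the Trem2 pathway, Tyrobp was 0.98, 0.83 and 0.88 in young mice and 1.72, 1.56 and 1.99 in aged mice, so that its groups did not overlap, as for Trem2. The kinase Syk downstream of it differed by -0.02 and Apoe, a lipoprotein that Trem2 binds, by 0.10. Genes of lipid-associated macrophages, in which Trem2 is active, gave a mixed picture. Of the 13 tested of 16, 8 were higher and 5 lower, with a median of 0.14, and none passed the threshold. Lgals3, which encodes galectin 3, was 1.08 higher (limma adjusted p = 0.335), with young mouse 3 at 1.27 and the other young mice at 2.72 and 2.90. The protease Ctsk differed by -1.02, at 1.54, 1.58 and 1.68 in young mice and 0.69, 0.52 and 0.52 in aged mice (limma adjusted p = 0.0652). The third largest difference measured on all arrays was that of Gpnmb, 0.85 with overlap, and most of it came from aged mouse 1.

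Cd163 takes up haemoglobin bound to haptoglobin, and Hmox1 degrades the haem. Hp, which encodes haptoglobin, differed by 0.68 and Hmox1 by 1.18, both with overlap and both highest in aged mouse 3. Among regulators of the lineage, Irf8 differed by 0.34, Cebpa by 0.62 and Cebpb by -0.20, with overlap in each. Cebpa was at -3.46 in young mouse 3 and at -0.65 and -0.80 in the other young mice. Cebpb was likewise lowest in that mouse, as was Lyz2. The endothelial genes Pecam1 (-2.55 against -0.66 and -0.57) and Tek (-3.97 against -1.74 and -2.04) were also lowest there. Cx3cr1 was instead higher in young mouse 3 than in the other young mice, at -2.53 against -3.83 and -3.57. The reason was not tested.

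Neutrophil genes differed between the groups as well, and their part in the results above was not tested. Of 13 neutrophil genes 6 were tested, and S100a8 (4.79, limma adjusted p = 0.00605) and S100a9 (4.68, limma adjusted p = 0.00605), which neutrophils and monocytes both express, rose in aged mice. Both calls were lost without aged mouse 3 (0.0553 for each). Retnlg was well above background only on the aged arrays and was at least 8.13-fold higher there (limma adjusted p = 0.0610). Csf3r differed by 0.03, Elane by -0.33 and Camp by -0.42. Mpo and Ngp, which define immature granulocytes, were not well above background on any array. The summed linear level of the 6, in units of the 75th percentile, ran from 134 to 139 in young mice and from 143 to 167 in aged mice. A sum of this kind follows its brightest probe, here that of Csf3r, and without Csf3r it ran from 1.19 to 1.67 in young mice and from 14.3 to 21.3 in aged mice. Il1b, Chil3, Lyz2 and Plac8 are made by neutrophils too.

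For other cell types the medians of the genes tested are given. T and natural killer cell genes (4 tested of 13, none of them higher in aged mice) had a median of -0.26, B cell genes -0.25 (4 of 8), dendritic cell genes 0.05 (6 of 8) and mast cell genes 0.37 (7 of 8). Of the tissue cells, fibroblast genes had a median of -0.49 (8 of 9), endothelial genes -0.33 (9 of 9), adipocyte genes -0.25 (6 of 7) and erythrocyte genes -1.05 (5 of 7). The last list was lower for all 5 genes tested, and none of these lists held a gene past the threshold. All 8 genes of muscle fibres were well above background on all 6 arrays, which matches the tissue label. Their median was -0.19, with 7 lower and 1 higher in aged mice.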

How the data were processed

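Total RNA of the gastrocnemius was labelled with Cy3 and hybridized to 1 array per mouse. The deposited intensity used here was the processed signal, on a linear scale and free of background, as written by the authors' scanner software (Feature Extraction, version 11.0.1.1 in the file headers and 9.5 in the labels). For every probe the deposited series matrix gave an identical value. Of 62976 spots per array 59305 were not controls. Flagged spots were left out (161 to 212 per array), spots of a probe were averaged on the log2 scale, and the 75th percentile of the array (signals of 243 to 368) was subtracted. Symbols came from RefSeq accessions (28325 of 55681 probes). Probes without a symbol were counted as genes under their identifier on the array, and of the 20900 genes tested 13843 had a symbol. The array's genome build is not given in the sources used here, so no probe positions are printed. A probe was kept when well above background on at least 3 of 6 arrays, as 48.7% to 53.8% of probes per array were, and a gene was represented by its brightest kept probe. The number of arrays limits the precision.

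The age groups were compared by lmFit and eBayes of limma 3.58.1, run in R 4.3.3, and p-values were adjusted over 20900 genes by the Benjamini-Hochberg method (threshold 0.05). This model was first tested on simulated data. Alternatives tried were a normexp correction of the median spot signal (offset 50; the mean spot signal is not used here), quantile normalization, scaling to the median, or to the 75th percentile of the probes detected on all arrays, no filter or a stricter filter (all 6 arrays), averaging a gene's probes, the series matrix, a mean-variance trend, blocks for the slide row or for the replicate number, and fits without 1 of the mice. With 1 slide and 1 scan, neither could be a block. Where a probe was dim throughout a group, only an approximate bound is given. Such a gene passed the filter through the other group alone, and its p-value still used the dim signals. For genes outside the 10 markers, those named from a list were the ones past the threshold and the 3 with the largest difference measured on all 6 arrays, with all tested genes of the partner list, and some genes that this rule names are not reported here. Others were added after their values were seen: Fcgr1, C1qb, Itgam, Mertk, F13a1, Nos2, Cd80, Cd86, Ccr2, Tlr2 and the genes of other cell types. The markers and lists were chosen with earlier results of these data known. Comparisons of protein sequences were not made.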

Additional observations from a re-analysis of the deposited data

How the results depend on the processing

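None of the 9 macrophage markers passed the threshold under any of the 17 alternatives, with adjusted p from 0.0817 (Cd68) upward. Of the 9, 8 were higher in aged mice under all 17. The series matrix, the trend, the replicate block and both changes of the filter left these differences as reported. For the markers without overlap between the groups, neither leaving out a mouse nor a block for the slide row could reverse the direction. Csf1r was the exception in direction, at 0.13 with the slide row as a block and between -0.17 and 0.0124 when 1 mouse was left out, the latter without aged mouse 3. The median difference of the markers was 0.34 with normexp background correction, and that of the inflammatory list 0.24. Scaling to the array median gave 0.29 for the resident list, and lowered the median of all genes by 0.13. Such scaling shifts every gene of an array alike, so the gap of 0.70 between the markers and all genes could not change. With normexp that gap was 0.40. Leaving out 1 mouse gave medians from 0.52 to 0.72 for the markers, from 0.33 to 0.54 for the resident list and from 0.57 to 0.74 for the inflammatory list. In the same settings 5 to 7 markers had all aged arrays above all young ones, as did 9.45% to 14.0% of all genes. Over all genes, 52 passed the threshold as reported, 8 without a filter, 32 with the filter on all 6 arrays, 1 without aged mouse 3 and 193 without aged mouse 1. With the replicate number as a block it was 5, and no marker passed. S100a8 and S100a9 also lost their calls there (adjusted p 0.0738 for each). The numbers name different mice of each age, and deviations of same-numbered mice correlated at -0.06, -0.27 and 0.03, so they were not treated as pairs. Il1b lost its call with normexp (0.169), without a filter (0.0881), with the slide row as a block (0.0853) and with the replicate block (0.0738), and was not tested with the filter on all 6 arrays. The causes were not tested. Dim signals limit Cd163, Spi1 and the 8 untested inflammatory genes, for which no difference could be tested.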

Other observations

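The genes whose values ran most closely with the mean of the 9 markers over the 6 arrays, among genes outside all lists, were Csf2rb (Pearson r = 0.989), Ptpn9 (0.988), Ccdc92 (0.988), Rab20 (0.987) and Mphosph8 (0.986). These are descriptions over 6 arrays that share the age groups, and the 5 genes were selected for this likeness from the genes with a symbol. Csf2rb, which encodes the common receptor subunit for GM-CSF, interleukin 3 and interleukin 5, was -1.0, -0.97 and -1.02 in young mice and 0.46, 0.05 and 0.75 in aged mice, a difference of 1.41 (limma adjusted p = 0.0670). Rab20, a small GTPase of vesicle traffic, was -2.43, -2.36 and -2.49 in young mice and -1.06, -1.66 and -0.65 in aged mice, a difference of 1.30 (limma adjusted p = 0.138). In both genes the young mice lay close together, and the aged mice took the order 3, 1, 2. That is also the order of their summed deviations over the 9 markers, and the selection of these genes favoured such an order. The differences of the other 3 were 0.60 for Ptpn9, 0.65 for Ccdc92 and 0.17 for Mphosph8.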
